A study of Mus musculus with 4 samples.

Results

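The conjugating enzyme genes described here are the mouse UDP-glucuronosyltransferase (Ugt), glutathione S-transferase (Gst) and sulfotransferase (Sult) genes that carried a peak of the glucocorticoid receptor (GR) or of E2A in liver. Members were taken by gene symbol from the nearest gene that the deposited annotation gave to each called peak. This rule found 29 genes of the 6521 with any peak, namely 12 Ugt, 11 Gst and 6 Sult genes, and 83 of the 17545 peak calls. RefSeq lists 65 protein-coding genes of these families, 22 Ugt, 22 Gst and 21 Sult genes, and no peak was named for 36 of them. One of these, Gstz1, holds intronic peaks that were named for its neighbour Pomt2.

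GR and E2A ChIP-Seq were each performed with 2 biological replicates in livers of untreated male C57BL/6 mice with the genotype E47+/+, 10 to 16 weeks old, kept on chow and collected at zeitgeber time 10. The E2A antibody recognizes the products of Tcf3, including E47 and E12, so that an E2A peak cannot be assigned to E47 alone. The descriptions of both E2A samples name a GR ChIP, and that of the second also names E47-/- animals, whereas title, antibody and genotype give E2A and E47+/+, which were used. The sample labels say untreated livers, whereas a supplementary description says Dex-treated. The study describes both ChIPs as made in the same livers but does not say which replicate numbers share a liver, so GR and E2A libraries may not be independent. No input, IgG or mutant library was analysed here.

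Conjugating enzymes carry out phase 2 of hepatic detoxification. Ugt enzymes of the endoplasmic reticulum transfer glucuronic acid to bilirubin, steroids, bile acids and drugs, Gst enzymes join glutathione to electrophiles, and cytosolic Sult enzymes transfer sulfate to steroids, bile acids, phenols and amines. GR is a ligand-activated nuclear receptor that binds glucocorticoid response elements (GREs) or other DNA-bound factors, and E proteins bind E-boxes as dimers.

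GR was called at more of these genes than E2A, as it was over all protein-coding genes (23.7% beside 13.9%). The glutathione S-transferase gene Gsta3 held the most peaks by far. Of the 29 genes, 10 had peaks of both ChIPs, 16 had GR peaks without E2A and 3 had E2A peaks without GR. At 9 genes a GR and an E2A peak shared at least 1 bp (Ugt2b1, Ugt2a3, Ugt2b5, Gsta3, Gstp3, Gstp2, Gstt1, Sult2a7 and Sult2a8). In 4 genes peaks were called in all 4 libraries, namely Gsta3, Gstp3, Ugt2b1 and Sult2a7. At the other end, 14 genes rested on 1 peak call in 1 library. How all 6521 genes with any peak divide in these ways was not counted. These counts are therefore not shown to be particular to the 3 families.

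Measured against the whole families, a GR peak in at least 1 replicate was called at 26 of 65 genes (40.0%, 95% Wilson interval 29.0-52.1), beside 23.7% of all 21887 protein-coding genes. GR was called in both replicates, though not always at the same place, at 9 members (13.8%), beside 9.32% of all genes. At 7 members a GR peak of 1 replicate met one of the other, and the number over all genes was not counted in this way. E2A was called at 13 members (20.0%) beside 13.9% of all genes, and in both replicates at 5 members (7.69%) beside 4.63%. Shared GR and E2A peaks lay at 9 members (13.8%) beside 8.88% of all genes. By family, GR was called at 11 of 22 Ugt (50%), 9 of 22 Gst (40.9%) and 6 of 21 Sult genes (28.6%), and E2A at 4, 6 and 3 of them. This order of the families came from the second GR library, with 9 Ugt, 8 Gst and 4 Sult genes, whereas the first had 4, 6 and 4, and GR in both replicates was found at 2, 5 and 2 genes. Genes of a family lie side by side in clusters and are not independent, so no test was made across them.

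**Figure D1:**
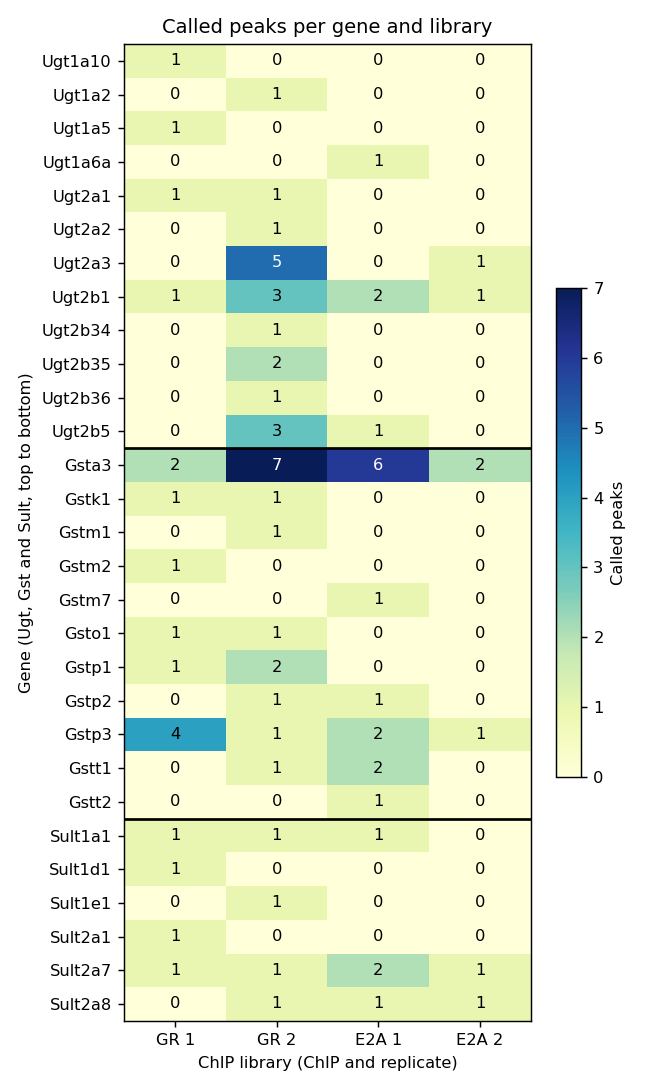
Number of called peaks at each of the 29 genes (rows, grouped as Ugt, Gst and Sult) in each of the 4 libraries (columns). Gsta3 has the darkest row with 2, 7, 6 and 2 peaks, and much of the Ugt2 block is filled in the second GR library alone.

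The number of peaks differed widely between libraries, although the authors downsampled GR libraries to 18000000 and E2A libraries to 22000000 read pairs. The lists hold no read counts or heights for single peaks. The first GR library held 18 member peaks of 4291 (0.419%, Wilson interval 0.266-0.662) and the second 37 of 7334 (0.504%, 0.366-0.695). The first E2A library held 21 of 4028 (0.521%, 0.341-0.796) and the second 7 of 1892 (0.370%, 0.179-0.762). The ranges of the ChIPs overlapped, and the mean share was 0.462% ± 0.0601 for GR and 0.446% ± 0.107 for E2A (SD, n = 2 each; exact two-sided permutation test, p = 1.00, where the smallest p this design allows is 0.333). The intervals cover counting error only.

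Replicates agreed in part. Of the 18 member peaks in the first GR library 8 (44.4%) had a counterpart in the second, beside 65.6% of all its peaks, and of the 37 in the second library 8 (21.6%) had one in the first, beside 37.5%. Of the 21 member peaks in the first E2A library 6 (28.6%) had a counterpart, beside 27.9%, and 6 of 7 (85.7%) in the second library did, beside 59.8%. After the peaks of all libraries were joined into 55 regions, 3 regions were called in 4 libraries, 3 in 3, 12 in 2 and 37 in 1. Of the regions called in 1 library, 22 came from the second GR library, 6 from the first, 9 from the first E2A library and 0 from the second. How the joined regions of all genes divide in these ways was not counted, so these counts are not shown to be particular to the members.

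Because livers were studied as bulk tissue, a region occupied in few cells and one weakly occupied in many cannot be told apart. Of 8 hepatocyte marker genes, all 8 had a GR and 6 an E2A peak, beside 23.7% and 13.9% of all genes. This list includes Tat and Pck1, which the study reports as known GR targets bound in this experiment, Pck1 by E2A as well. Their peaks were thus known beforehand. No peak was called at 3 cholangiocyte, 4 Kupffer cell, 3 stellate cell or 5 B cell marker genes, while GR was called at 2 of 3 sinusoidal endothelial genes (Stab2 and Lyve1) and 1 of 4 T cell genes (Cd4). Lists this short, set against those shares, say little where no peak was called.

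Glutathione S-transferases came first in number of peaks. Gsta3 (ENSMUSG00000025934), an alpha class enzyme of the liver that detoxifies aflatoxin epoxide in mice, carried 2 and 7 GR peaks and 6 and 2 E2A peaks in replicates 1 and 2. These peaks formed 9 regions from 8.3 kb upstream to 28.0 kb downstream of the transcription start site, of which 2 were called in all 4 libraries. The upstream region, annotated as intergenic (mm10, chr1:21231636-21232320), was called with widths of 319 and 405 bp for GR and 531 and 339 bp for E2A. At the promoter (chr1:21240190-21245499) GR peaks of 773 and 5225 bp and E2A peaks of 327 and 285 bp covered or flanked the start site. The GR peak of 5225 bp was the widest at any of the 29 genes and reached into the gene body. Of the 7 other regions, 3 were called in the second GR library alone, 2 in the first E2A library alone, and 2, inside the gene and behind it, in both of these libraries.

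The stretches common to all 4 libraries at Gsta3 are shown because no other gene had more than 1 such region. Sequences are from the plus strand of RefSeq GRCm38.p6, and capitals mark an E-box, CANNTG, which is searched on both strands and reads CANNTG on either. The upstream stretch lies at chr1:21231947-21232166 and holds 1 E-box, and the promoter stretch at chr1:21240362-21240543 holds none.
Gsta3 upstream: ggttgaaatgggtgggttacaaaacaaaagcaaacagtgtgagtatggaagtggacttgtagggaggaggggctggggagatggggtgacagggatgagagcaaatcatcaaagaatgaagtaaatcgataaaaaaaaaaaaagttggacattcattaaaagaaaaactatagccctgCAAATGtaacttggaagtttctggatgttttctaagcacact
Gsta3 promoter: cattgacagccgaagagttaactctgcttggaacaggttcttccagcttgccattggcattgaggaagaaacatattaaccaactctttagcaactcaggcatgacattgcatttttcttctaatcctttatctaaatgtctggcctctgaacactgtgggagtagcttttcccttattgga

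The pi class genes Gstp1, Gstp2 and Gstp3 lie within 24.2 kb on chromosome 19, and each was called in its own way. Gstp3 (ENSMUSG00000058216) carried 4 and 1 GR peaks and 2 and 1 E2A peaks. Its region 6.0 kb upstream (chr19:4065479-4066467) was called in the first GR library (987 bp) and in both E2A libraries (705 and 248 bp) but not in the second GR library. A region 8.9 kb upstream was instead called in both GR libraries and in neither E2A library. Gstp1 had GR peaks at the promoter in both replicates (378 and 1897 bp) and a second GR peak of 1467 bp behind the gene in the second replicate, with no E2A peak. Gstp2 had 1 GR peak in the second library and 1 E2A peak in the first, which shared 205 bp at 3.7 kb upstream. Gstp1 and Gstp2 are close paralogs, and how well reads could be told apart between them was not examined.

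Other Gst classes had few peaks. Gsto1, an omega class enzyme that reduces dehydroascorbate and arsenic compounds, had a promoter GR peak of 389 bp in the first and 292 bp in the second replicate and no E2A peak. Gstk1, the mitochondrial and peroxisomal kappa class enzyme, had 1 GR peak in each replicate, but at different places, the promoter in the second and 6.1 kb downstream of the start site in the first. Gstt1, of the theta class, had 1 GR peak in the second library and 2 E2A peaks in the first, and 256 bp were shared in an intron. Among the mu class, Gstm1 had a promoter GR peak of 798 bp in the second library, Gstm2 an intronic GR peak in the first and Gstm7 a promoter E2A peak in the first. Gstm7, Gstt2 and Ugt1a6a were the 3 genes with an E2A and no GR peak, each with 1 peak in the first E2A library. No peak was named for the alpha class neighbours Gsta4, Gsta1 and Gsta2, which span 155 kb on chromosome 9, although an E2A peak of the first library within this span was named for Gm3776. Gsta3 lies apart on chromosome 1.

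**Figure D2:**
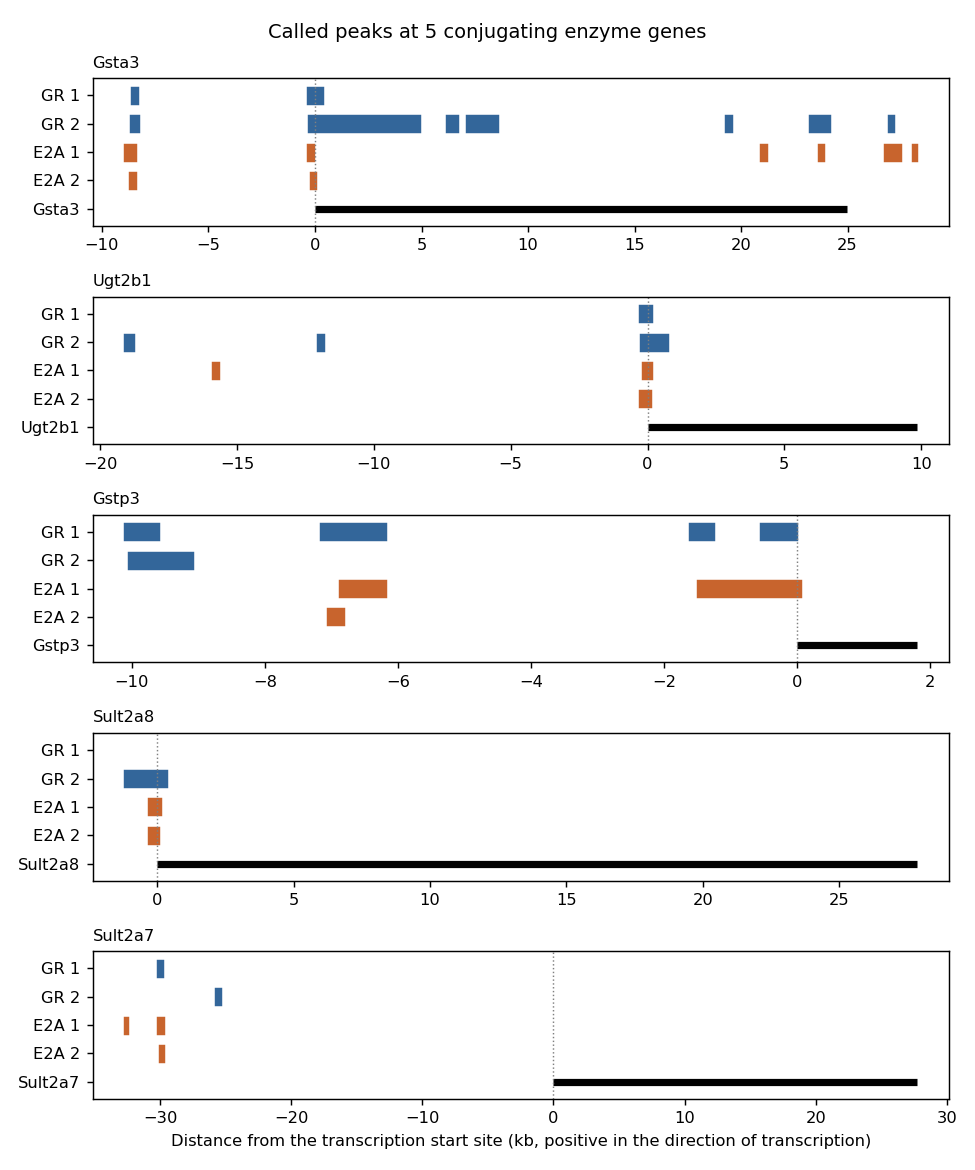
Called peaks at Gsta3, Ugt2b1, Gstp3, Sult2a8 and Sult2a7 in the 4 libraries (blue, GR; orange, E2A) against distance in kb from the transcription start site of the annotated transcript (dotted line; the black bar is the gene). The 4 libraries line up at the Gsta3 upstream and promoter regions and at the Ugt2b1 promoter, while at Gstp3, Sult2a8 and Sult2a7 1 GR library has no peak where both E2A libraries do.

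Among the glucuronosyltransferases, peaks were concentrated in the Ugt2 cluster on chromosome 5, which spans 702 kb with 13 genes, 10 of them with peaks. The sulfotransferase genes Sult1b1, Sult1d1 and Sult1e1 are among the 13, and the counts for this cluster include the peaks of Sult1d1 and Sult1e1. GR was called 3 times in the first and 18 times in the second library over this cluster, and E2A 3 and 2 times. Of its 20 regions 14 were found in the second GR library alone, and the part that this library plays in the counts for Ugt genes was not tested. Without it, GR was called at 14 of the 29 genes in place of 26.

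Ugt2b1 (ENSMUSG00000035836), an enzyme of hepatic steroid and drug glucuronidation, was the Ugt gene with a region in all 4 libraries. It had 1 and 3 GR peaks and 2 and 1 E2A peaks. Its promoter region (chr5:86925762-86926826) held GR peaks of 476 and 1011 bp and E2A peaks of 360 and 431 bp. Additional peaks at 11.8 and 18.8 kb upstream (GR) and 15.7 kb upstream (E2A) were each called in 1 library and did not overlap. The stretch common to the 4 promoter peaks is at chr5:86926379-86926692. The central 200 bp of the merged E2A peak (chr5:86926472-86926671) lie within it and hold 1 E-box. The part shown, which leaves out annotated exons, is at chr5:86926531-86926635 and holds no E-box.
Ugt2b1 promoter: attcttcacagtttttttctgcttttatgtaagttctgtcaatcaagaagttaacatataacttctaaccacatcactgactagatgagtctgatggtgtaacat

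Ugt2a3 had the most merged GR peaks of the Ugt genes, with 0 and 5 GR peaks, from the promoter to 38.7 kb upstream, and 0 and 1 E2A peaks. The farthest of them was the one that met the E2A peak of the second replicate, over 266 bp. Its GR peak of 1081 bp, 10.0 kb upstream, was the widest at a Ugt gene. Ugt2b5 had 0 and 3 GR peaks and 1 and 0 E2A peaks, of which 1 of each shared 331 bp at 7.5 kb upstream. Ugt2a1, known from the olfactory epithelium, had a GR peak 8.1 kb upstream in both replicates (485 and 451 bp) and no E2A peak. Ugt2b35 had 2 GR peaks in the second library, and Ugt2a2, Ugt2b34 and Ugt2b36 had 1 each there.

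The Ugt1a genes, whose first exons are spliced to shared last exons and which include the bilirubin transferase Ugt1a1, were sparsely bound. Over 165 kb and 9 genes GR was called 2 times in the first library and 1 time in the second, E2A 1 time and 0 times, and no GR and E2A peak met. The peaks were named for Ugt1a10, Ugt1a5, Ugt1a2 and Ugt1a6a, and none was named for Ugt1a1. Because the first exons share one locus, the nearest start site need not be that of the gene concerned. The promoter peak named for Ugt1a2 (chr1:88102941-88103414) covers GENCODE start sites of Ugt1a6b and Ugt1a7c, whereas Ugt1a2 starts at 88200611 in RefSeq.

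Sulfotransferases had the fewest peaks, with 14 calls at 6 genes, and none was named for 15 of their 21 genes. The Sult2a enzymes, which sulfate bile acids and hydroxysteroids such as dehydroepiandrosterone, form a cluster of 8 genes over 869 kb on chromosome 7. Sult2a7 (ENSMUSG00000094156) had 1 and 1 GR peaks and 2 and 1 E2A peaks, and these lay from 25.4 to 32.4 kb upstream. Its region 29.7 kb upstream (chr7:14522593-14523163) was called in the first GR library (465 bp) and both E2A libraries (506 and 436 bp), while the GR peak of the second library lay 25.4 kb upstream. Sult2a8 (ENSMUSG00000030378) had 0 and 1 GR peaks and 1 and 1 E2A peaks, all at the promoter (chr7:14438196-14439752), with widths of 1557 bp for GR and 468 and 400 bp for E2A. Both Sult2a regions were thus called in 3 libraries, each without a different GR replicate.

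Parts of these regions are shown because they carried E2A in both replicates. That of Sult2a8 (chr7:14438569-14438768) holds 2 E-boxes, in capitals, and that of Sult2a7 (chr7:14522764-14522963) holds none.
Sult2a8 promoter: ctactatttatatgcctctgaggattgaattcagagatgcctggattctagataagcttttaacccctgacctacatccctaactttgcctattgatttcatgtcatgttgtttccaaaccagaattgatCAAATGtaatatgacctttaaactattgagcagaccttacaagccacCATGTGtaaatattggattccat
Sult2a7 upstream: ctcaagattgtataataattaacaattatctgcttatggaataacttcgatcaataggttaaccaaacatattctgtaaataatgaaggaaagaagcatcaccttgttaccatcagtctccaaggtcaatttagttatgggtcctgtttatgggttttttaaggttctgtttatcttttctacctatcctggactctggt

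Sult1a1, the phenol sulfotransferase, was the 1 gene with peaks of both ChIPs that did not meet. GR was called at its promoter in both replicates (626 and 360 bp), and E2A once, 4374 bp away from the GR peak. That E2A peak was annotated as intergenic but lies within the longer Sult1a1 gene of RefSeq. Sult1d1 and Sult2a1 had 1 GR peak in the first library, and Sult1e1, the estrogen sulfotransferase, had 1 exonic GR peak in the second.

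GR and E2A peaks met at conjugating enzyme genes about as often as over the genome. An E2A peak was met, by 1 bp or more, in 14 of 47 merged GR peaks (29.8%, 18.7-44.0), beside 30.7% of all 8795. Of 22 merged E2A peaks 13 (59.1%) met a GR peak, beside 58.1% of all 4783. The shared stretch had a median of 320 bp (205 to 875) in these 14 pairs and was at least 50% of the shorter peak in all 14. By family, 3 of 20 Ugt GR peaks (15.0%, 5.24-36.0), 9 of 20 Gst GR peaks (45.0%, 25.8-65.8) and 2 of 7 Sult GR peaks (28.6%, 8.22-64.1) met E2A. These intervals overlap, and 4 of the Gst pairs were at Gsta3 and 3 at Gstp3.

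By library, 7 of 18 member peaks of the first GR library met E2A (38.9%, beside 39.4% of all its peaks), and 10 of 37 of the second did (27.0%, beside 31.4%). In the first E2A library 12 of 21 met GR (57.1%, beside 58.6%), and in the second 7 of 7 did (Wilson interval 64.6-100, beside 64.5%). Without the first E2A library, 14.9% of the merged GR peaks at members met E2A, and 15.0% of those at Gst genes. The share over all merged GR peaks without this library was not counted, so the fall is not shown to be particular to the members.

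The share of promoter peaks at members was not below that over all genes in every library. Of the 83 calls 36 were annotated as intergenic, 28 as promoter, 15 as intron, 2 as exon and 2 as downstream. Of the merged GR peaks 15 (31.9%) were promoter peaks, beside 50.4% of all, and 5 of 22 merged E2A peaks (22.7%) were, beside 39.1%. Member calls at promoters were 7 of 18 in the first GR library (38.9%, 20.3-61.4, beside 34.3% of all its peaks). In the second they were 13 of 37 (35.1%, 21.8-51.2, beside 57.4%). In the E2A libraries they were 5 of 21 in the first (23.8%, 10.6-45.1, beside 41.2%) and 3 of 7 in the second (42.9%, 15.8-75.0, beside 37.1%). The lower share was thus seen in the second GR and first E2A library. Only the interval of the second GR library leaves out the share of all its peaks. Of the GR peaks called in both replicates, which were 8 of 47 (17.0%, beside 31.1% of all), 5 lay at promoters, and of the 6 such E2A peaks (27.3%, beside 23.4%) 3 did. The promoter share over all peaks called in both replicates was not counted. The promoters with GR in both replicates were those of Ugt2b1, Gsta3, Gsto1, Gstp1 and Sult1a1. Across the 55 regions the median distance to the start site was 5680 bp, with 5760 bp for Ugt, 4890 bp for Gst and 5680 bp for Sult genes, and the greatest was 38680 bp.

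**Figure D3:**
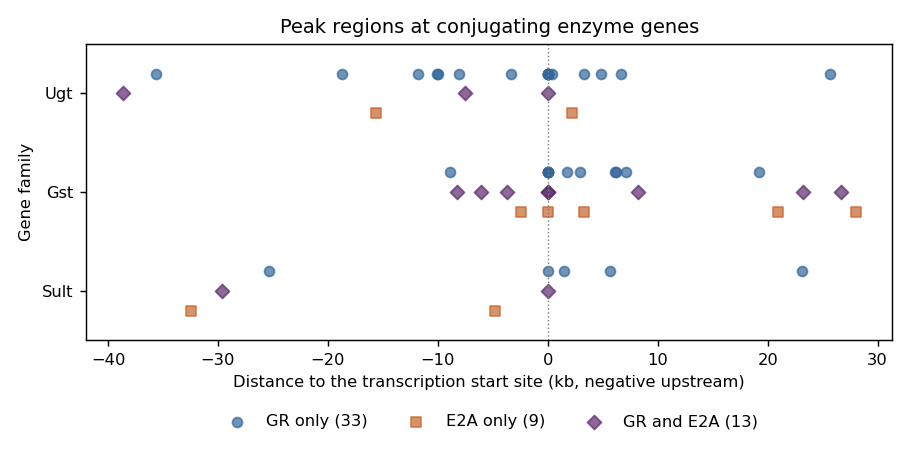
Distance in kb from each of the 55 peak regions to the transcription start site (negative, upstream), by family, for regions with GR only (circles, 33), E2A only (squares, 9) and both (diamonds, 13). Regions gather at 0, where 16 are promoter regions, and those with both ChIPs are spread over the same range as the others.

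Promoter peaks of the members were poorer in GC than those of all genes, by description. In the central 200 bp of each merged peak, leaving out peaks over 2000 bp, the sequence had a median GC content of 47.2% (36.0 to 67.0) at the 14 GR promoter peaks of members, beside 68.5% at all 4337. At the 5 E2A promoter peaks the median was 42.5%, beside 66.0%. Away from promoters the medians were 42.2% beside 48.5% for GR and 47.0% beside 48.0% for E2A. The highest value was that of the Gsto1 promoter, at 67.0%, and the Ugt2b1 promoter had the lowest of the GR promoter windows, at 36.0%.

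E-boxes were found in 20 of the 22 E2A windows at members (90.9%, 72.2-97.5), beside 59.3% of all 4748 and 68.2% of the 3115 whose GC content lay in the range of the members. They were in 5 of 5 windows at Ugt, 12 of 13 at Gst and 3 of 4 at Sult genes. Gstm7 and the Sult2a7 region 29.7 kb upstream were without. The most frequent core was CAATTG, in 5 windows (22.7%, beside 3.26% of all), whereas CACCTG, read as CAGGTG on the other strand, was in 2 (9.09%, beside 13.3%), and CACGTG was in 0. Shares of single cores at like GC content were not counted, and in GR windows at members CAATTG was in 1 of 46 (2.17%, beside 2.35%). In windows of 100 bp the share of E2A windows with any E-box was 40.9%, beside 36.9% of all. Without the first E2A library the share in 200-bp windows was 71.4% (5 of 7). GR windows at members held an E-box in 26 of 46 cases (56.5%, beside 54.7%), with 16 of 20 at Ugt (80.0%, 58.4-91.9), 9 of 19 at Gst (47.4%, 27.3-68.3) and 1 of 7 at Sult genes (14.3%, 2.57-51.3).

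**Figure D4:**
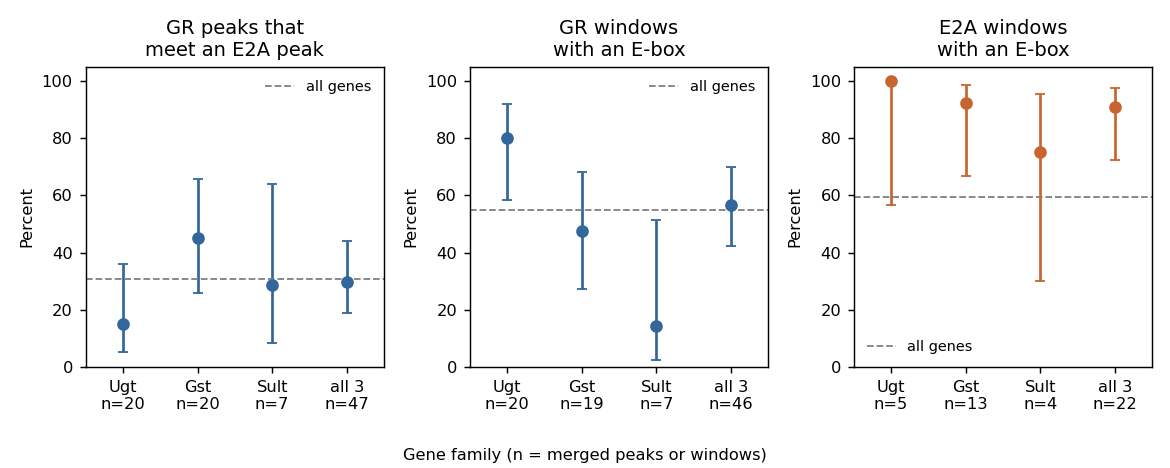
Percent of merged GR peaks that meet an E2A peak (left), of 200-bp GR windows with an E-box (middle) and of 200-bp E2A windows with an E-box (right) for the Ugt, Gst and Sult genes and all 3 families (points; bars, 95% Wilson intervals), with the value over all genes as a dashed line. The overlap with E2A lies around the line, at 29.8% beside 30.7%, and the E-box share of E2A windows lies above it, at 90.9% beside 59.3%.

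GREs were searched as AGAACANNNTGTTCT on both strands with up to 2 mismatches in the 12 fixed bases. A match was in 4 of 46 GR windows at members (8.70%, 3.43-20.3), beside 4.49% of all, and in 0 of 22 E2A windows, beside 1.22%. At promoters a match was in 2 of 14 GR windows at members (14.3%, 4.01-39.9), beside 0.853% of all promoter windows. These were the windows of Sult1a1, called in both replicates, and of Ugt1a5, called in the first library alone. The 2 sets differ in median GC content (47.2% beside 68.5%), and no GRE share at like GC content was counted. Away from promoters it was in 2 of 32 (6.25%, 1.73-20.1), beside 8.14%, so the higher share of members was not seen there. Among GR peaks called in both replicates it was in 3 of 7 windows (42.9%, 15.8-75.0), those of Gsta3, Ugt2a1 and Sult1a1, beside 7.63% of all such windows. Over the whole width of the 55 regions there were 6 matches, each with 2 mismatches. They are printed in full because they are the closest to the consensus at these genes, with the 12 compared bases in capitals and as read on the plus strand.
Gsta3 upstream, chr1:21232159-21232173: AGCACActtTGTACT
Gstp3 upstream, chr19:4066270-4066284: AGAAAAtgtTTTTCT
Sult1a1 promoter, chr7:126676438-126676452: AGGACTggcTGTTCT
Ugt1a5 promoter, chr1:88166671-88166685: AGAACAtgcTGTACC
Ugt2b36 intron, chr5:87085757-87085771: AGAACAttcTGCACT
Ugt2a1 upstream, chr5:87499130-87499144: AGAACActaAGTGCT

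Counted from 1 at the 5′ end of the consensus, the changes were A3C and T13A at Gsta3, C5A and G11T at Gstp3, A3G and A6T at Sult1a1, T13A and T15C at Ugt1a5, T12C and T13A at Ugt2b36, and T10A and T13G at Ugt2a1. The consensus is its own reverse complement, so a change at position 13 on one strand is a change at its mirror position on the other. Position 13 or its mirror differs in the matches at Ugt1a5, Ugt2b36, Ugt2a1, Gsta3 and Sult1a1. Both are kept in that at Gstp3. One half-site is intact at Ugt1a5, Ugt2b36 and Ugt2a1 (the first as printed, AGAACA) and at Sult1a1 (the second as printed, TGTTCT). The Gsta3 match begins within the stretch common to all 4 libraries and ends beyond it. All 6 regions carried GR, in both replicates at Gsta3, Sult1a1 and Ugt2a1, and E2A was called at those of Gsta3 and Gstp3.

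Genes that supply, export and regulate conjugation also carried peaks. From a list of 38 such genes, 29 had a GR peak (76.3%, beside 23.7% of all genes), 24 an E2A peak (63.2%, beside 13.9%), 18 a shared one (47.4%, beside 8.88%) and 8 none. The list was chosen with earlier results of these data known, and its sublists of 4 to 8 genes are to be read against the same shares. All 4 genes of glucuronic acid metabolism had GR peaks and 3 had E2A. The 4 were Ugp2, Ugdh and Slc35d1, which make or carry the donor, and Gusb, which hydrolyses glucuronides. Of these, Ugp2 had 0 and 1 GR and 4 and 1 E2A peaks. For the sulfate donor, made by the Papss enzymes, 5 of 6 genes had GR and 3 had E2A, with 4 and 2 GR and 5 and 0 E2A peaks at Papss2. In glutathione metabolism 5 of 8 had GR and 4 had E2A, with Gclc, Gclm, Gss, Gsr and Ggt1 for its synthesis and turnover and Mgst1, Mgst3 and Gpx1 that use it. Gclc, the catalytic subunit of glutamate-cysteine ligase, had 2 and 3 GR and 2 and 0 E2A peaks. Other phase 2 enzymes had GR and E2A at 4 of 8 each, and the exporters at 4 and 3 of 4, led by the canalicular pump Abcc2 with 2 and 7 GR and 3 and 2 E2A peaks.

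Of 8 regulators 7 had GR (beside 23.7% of all genes), 7 had E2A (beside 13.9%) and 6 had shared peaks (beside 8.88%). The xenobiotic receptor PXR (Nr1i2) had 7 and 6 GR and 3 and 0 E2A peaks, its partner Rxra had 6 and 7 GR and 7 and 2 E2A peaks, and the antioxidant factor Nrf2 (Nfe2l2) had 2 and 1 GR and 5 and 2 E2A peaks. Nr1i3, which encodes CAR, had no peak named for it in any library.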

How the data were processed

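Called peaks of GR and E2A ChIP-Seq from mouse liver were used, with 2 libraries per ChIP assigned by title, and the replicate numbers of the GR libraries were taken from the labels, which are opposite to those in the names of the lists. Per the labels and the methods, the authors mapped reads with BWA (0.7.13 in the processing notes) to mm10, removed duplicates with Picard (1.119), kept uniquely mapped pairs, downsampled to 18000000 (GR) or 22000000 (E2A) pairs and called peaks with MACS2 (2.1.0) in each sample. For every peak the deposited lists give its position and width in bp, the gene feature it lies in and its distance to the nearest start site, with no normalization. The methods give other versions of Picard and MACS2. The control, threshold and annotation tool are not given in the sources used here.

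Peaks of the replicates of a ChIP sharing at least 1 bp were merged, and GR and E2A peaks sharing at least 1 bp were taken to meet. Regions join the peaks of all 4 libraries. A merged peak was a promoter peak when any of its calls was annotated so. All 17545 peaks lay inside the chromosomes of GRCm38, which is mm10. Families were counted from RefSeq protein-coding genes, and all 29 members matched by Entrez identifier. Motifs were counted in the central 200 bp of merged peaks, leaving out peaks over 2000 bp, because summits are not given. The share of library peaks was compared by an exact permutation test, and intervals of shares are 95% Wilson intervals. Python 3.11.15, numpy 2.4.6, pandas 2.3.3, scipy 1.17.1, pysam 0.24.0, samtools 1.23.1 and matplotlib 3.10.9 were used, and the overlap and motif functions were tested on simulated data. The study describes both ChIPs as made in the same livers, without saying that a shared replicate number marks a shared liver, and 2 pairs do not allow this to be checked, so the fit with the number as a block is given as an alternative.

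The members and lists were chosen with earlier results of these data known. Genes were described by name when they had a region in 4 libraries, the most merged GR or E2A peaks or the widest GR peak of a family, E2A without GR, GR in both replicates without E2A, or a promoter GR peak in both replicates. Other members were named by their counts, and regions called in 3 libraries and the cores of E-boxes were chosen after their values were seen.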

Additional observations from a re-analysis of the deposited data

How the results depend on the processing

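Over 90 alternative values of 12 results, 72 moved by less than their counting interval or 1.5 times, 16 moved further and 2 changed sign. Where a peak had to be called in both replicates, 7 genes had GR, 5 had E2A and 2 had shared peaks, the share of GR peaks meeting E2A was 50% at Ugt (1 of 2) and 0% at Sult genes (0 of 1), promoter peaks were 62.5% for GR and 50% for E2A, and 42.9% of GR windows had a GRE. With 1 mismatch, 0% of GR windows had a GRE. E2A windows of 100 bp held an E-box in 40.9% (chosen after seeing the data). Leaving out 1 library at a time gave from 14 to 26 genes with GR (14 without GR replicate 2), from 6 to 13 with E2A (6 without E2A replicate 1) and from 4 to 8 with shared peaks (4 without GR replicate 2). The share of GR peaks meeting E2A ranged from 14.9% to 38.9% for all members, 15.0% to 50% for Gst, 10.0% to 25.0% for Ugt and 25.0% to 28.6% for Sult genes, with the first 2 of these lowest without E2A replicate 1. Promoter shares ranged from 31.9% to 38.9% for GR and from 22.7% to 42.9% for E2A, and E-boxes in E2A windows from 71.4% to 90.5%. The difference in the share of library peaks, GR minus E2A, was 0.0163 percentage points and ranged from -0.0594 (without E2A replicate 2) to 0.0920, with -0.0262 without GR replicate 2. With the replicate number as a block it stayed at 0.0163 (exact permutation test, p = 1.00, smallest possible 0.5), so the block changed no call. Shares over all peaks were not counted for the overlap without E2A replicate 1 or for promoter peaks called in both replicates. The cause of these shifts was not tested, and the lists give no reads for single peaks.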

Other observations

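Naming peaks by the nearest GENCODE start site gave the same gene for 82 of the 83 calls and another member for 1, and added 8 calls at genes of the 3 families that the deposited annotation had named otherwise. Of these, 5 were at Gstz1, the zeta class enzyme of tyrosine breakdown, which had no peak under the deposited names. In an intron of Gstz1 (gene at chr12:87147161-87164723) a peak named for the neighbour Pomt2 was called in the first GR library (265 bp) and in both E2A libraries (380 and 284 bp). The other calls added were 2 at Sult1e1, deposited under Mir3969, and 1 at Gsta1, deposited under Gm3776. An intergenic E2A peak at Gstt2 (chr10:75837298-75837653) covers a GENCODE start site of that gene.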
